A study of Mus musculus with 14 samples.

Results

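The genes described here are 9 outputs and accessory factors of the circadian clock in mouse hippocampus, namely Dbp, Tef, Hlf, Nfil3, Ciart, Bhlhe40, Bhlhe41, Rora and Rorb. They were taken by symbol from a table of 24421 genes, of which 14897 had enough counts to be tested, and all 9 were among the latter. The members were chosen by the measured genotype difference of Dbp and Ciart in these mice, around which the list was written. The genotype values of the members are therefore given as a description, and nothing is concluded from which of them passed a threshold. RNA was sequenced from the hippocampus of 7 naive, untreated male mice labelled LPAR2-/- and 7 naive, untreated male wild-type (WT) mice, with 1 library per mouse, to ask how loss of the lysophosphatidic acid receptor LPAR2 changes transcription. The labels give both genotypes the strain 129.C57Bl6 and an age of 10 to 12 weeks, whereas the description deposited with the data calls them middle aged to aged. The LPAR2-/- mice lack a part of exon 2 of Lpar2. Control mice were a mix of C57BL/6 and 129/SvJ. Knockouts and controls came from separate breeding colonies, the knockout one homozygous, so that colony and genotype cannot be told apart. Mice were kept under a light-dark cycle, and the hour at which the hippocampi were removed is not given in the sources used here, so that hour of removal and genotype cannot be told apart either. The labels and the methods name the hippocampus, and the study's results name the dentate gyrus.

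The circadian clock is a feedback loop of transcription. CLOCK and BMAL1 (the product of Arntl) switch on genes with E-boxes (the letters CACGTG), among them their own repressors of the Per and Cry families, and a side loop of REV-ERB repressors (Nr1d1, Nr1d2) and ROR activators (Rora, Rorb) sets the level of Arntl through ROR elements. The PAR bZIP activators DBP, TEF and HLF and their repressor NFIL3 compete for D-boxes and pass the rhythm on to output genes. CIART and the E-box binding repressors BHLHE40 and BHLHE41 dampen CLOCK-BMAL1. Outside the central pacemaker, the Dbp transcript is one of the most strongly cycling transcripts of many tissues, and Bhlhe40 is also induced by neuronal activity.

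Of the 9 members, 8 had promoter entries in RefSeq, 10 start sites in all (build GRCm38.p6, the assembly behind mm10), and Bhlhe40 had none. The following stretches are the 250 bases before the start of the 3 members that moved furthest between genotypes, and of Tef, the most abundant member. They are written from 5′ to 3′ on the strand of the gene, with the motif named for each gene in capitals. Ciart (chr3:95882229-95882478, minus strand) is shown with 3 copies of the E-box CACGTG, Dbp (chr7:45704997-45705246, plus strand) with none of the motifs searched, Nfil3 (chr13:52981040-52981289, minus strand) with the ROR element TAGGTCA read on the opposite strand, and Tef (chr15:81802423-81802672, plus strand, the first of its 2 start sites) with 1 E-box.

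Ciart: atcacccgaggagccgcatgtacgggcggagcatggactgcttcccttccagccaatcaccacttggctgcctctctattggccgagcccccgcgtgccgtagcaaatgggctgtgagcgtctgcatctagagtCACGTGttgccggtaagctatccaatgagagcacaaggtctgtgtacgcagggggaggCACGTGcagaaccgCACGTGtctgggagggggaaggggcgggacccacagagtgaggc
Dbp: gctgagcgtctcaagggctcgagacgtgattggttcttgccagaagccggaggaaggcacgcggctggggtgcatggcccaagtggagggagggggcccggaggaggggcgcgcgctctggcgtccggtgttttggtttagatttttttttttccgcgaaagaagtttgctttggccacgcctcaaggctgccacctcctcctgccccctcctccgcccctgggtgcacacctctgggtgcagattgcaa
Nfil3: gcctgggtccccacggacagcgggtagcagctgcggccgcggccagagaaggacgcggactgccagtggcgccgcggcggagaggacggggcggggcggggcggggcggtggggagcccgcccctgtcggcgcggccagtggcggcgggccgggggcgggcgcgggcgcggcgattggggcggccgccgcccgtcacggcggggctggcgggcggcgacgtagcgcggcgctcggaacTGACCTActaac
Tef: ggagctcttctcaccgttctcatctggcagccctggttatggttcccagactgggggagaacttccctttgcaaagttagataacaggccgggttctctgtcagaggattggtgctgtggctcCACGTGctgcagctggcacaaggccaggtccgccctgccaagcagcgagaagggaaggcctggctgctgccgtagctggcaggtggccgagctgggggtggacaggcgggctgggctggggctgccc

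In these windows, E-boxes (CACGTG, its own reverse complement) were found before Ciart at 116, 58 and 44 bases from the start, before Tef at 127 and 138 bases from its 2 start sites, and before Bhlhe41 at 153 bases. Of the 32851 promoters in the RefSeq table, 6.02% held at least 1 such E-box, and 20 promoters (0.0609%) held 3 or more, that of Ciart among them. The related letters CACGTT, searched on both strands like the motifs that follow, were found before 1 start site of Rorb at 234 bases, and in 3.85% of all promoters. The ROR element TAGGTCA was found before Nfil3 at 12 bases (2.23% of all promoters), and the cAMP response element TGACGTCA before Hlf at 9 bases (1.55%). The D-box spellings TTATGTAA (0.819%) and TTACGTAA (0.113%) were found before no member. Dbp and Rora held none of these motifs. A match describes the letters only, and a missing match says only that these letters were not in this window.

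The depth of the libraries was 15434620 to 23258949 counted reads. Over the 14897 genes tested, 1009 (6.77%) passed a Benjamini-Hochberg adjusted p of 0.05 in the quasi-likelihood test of edgeR, 494 of them (3.32%) higher and 515 (3.46%) lower in LPAR2-/- mice, and the median log2 fold change was 0.00. Lpar2 (chr8:69822565-69831102), the targeted gene, was counted 144 to 234 times in the libraries labelled LPAR2-/- and 27 to 66 times in WT libraries, which goes against the labels. These counts are summed over all exons of the gene, so transcripts with and without the deleted part of exon 2 cannot be told apart in them. Group names below are those of the labels, and every direction given rests on them. Defining markers of dentate gyrus, CA1 and CA3 were counted in all mice. A few libraries stood apart in other cell types. The summed CPM (counts scaled to the library size) of 4 oligodendrocyte markers was 3512 in LPAR2-/- mouse 3 and 853 to 1826 in all other mice, that of 6 choroid plexus markers was 287 in LPAR2-/- mouse 2 and 25.5 to 51.9 in the others, and that of 4 CA1 markers was 331 in WT mouse 2 and 83.8 to 169 in the others. The subfield markers varied as well. The summed CPM of 4 dentate gyrus markers was 584 and 590 in LPAR2-/- mice 6 and 7 and 351 to 515 in the others, while that of 3 CA3 markers was 91.2 and 83.8 in these 2 mice and 106 to 197.5 in the others. Some marker sums also lay higher in LPAR2-/- mice, with ranges that overlap. Those of 4 striatal markers were 61.2 to 73.6 CPM in LPAR2-/- mice, 6 of 7 above the WT range of 55.0 to 64.6 CPM, those of 5 cortical markers were 314 to 383 against 290.5 to 341.5 CPM, and those of 4 meningeal markers 51.6 to 251 against 41.2 to 199 CPM. Of these lists, 0 of 4 striatal, 1 of 5 cortical (Rasgrf2) and 1 of 4 meningeal markers (Lum) passed the test, and 1 of 4 dentate gyrus markers (Tdo2), each higher in LPAR2-/- mice. Their part in the genotype values below was not tested.

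Corrected for the length counted, the members covered a wide range of levels. In RPKM (the CPM divided by the counted length in kilobases), Tef was the most abundant member in WT mice at 139 ± 11.9 (SD, n = 7), followed by Hlf at 45.3 ± 8.59, Bhlhe40 at 41.6 ± 8.38 and Dbp at 22.2 ± 3.66. Bhlhe41 (7.80 ± 0.492), Nfil3 (7.50 ± 1.62) and Ciart (5.71 ± 0.406) lay lower, and Rorb (2.92 ± 0.563) and Rora (2.19 ± 0.147) were the lowest. The ranges of neighbours in this order were apart between Tef and Hlf, Dbp and Bhlhe41, and Ciart and Rorb, whereas Hlf and Bhlhe40, Bhlhe41 and Nfil3, Nfil3 and Ciart, and Rorb and Rora overlapped. Bhlhe40 and Dbp met at the edge, the lowest WT mouse for Bhlhe40 and the highest for Dbp both reading 29.4 RPKM. In LPAR2-/- mice the order differed. Dbp was level with Hlf and Bhlhe40 (41.3 ± 5.26, 40.7 ± 4.17 and 40.3 ± 9.98 RPKM), and Ciart (10.5 ± 1.79) stood above Bhlhe41 (8.30 ± 0.800) and Nfil3 (5.11 ± 0.515), although its range overlapped that of Bhlhe41. Levels per length depend on the gene model that was counted.

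**Figure D1:**
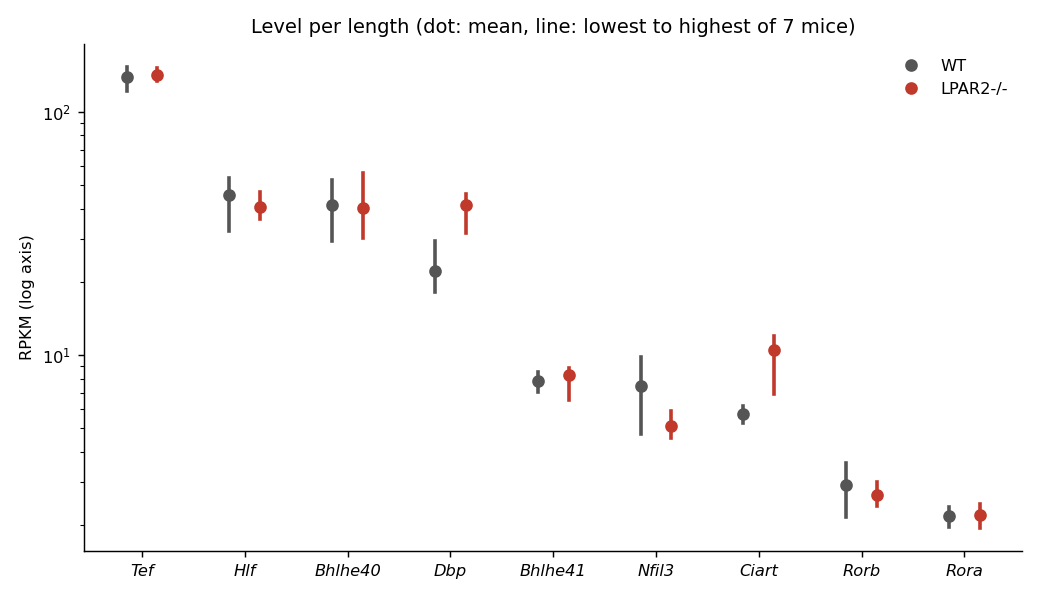
Level per counted length of each member in RPKM (log axis), ordered by the WT mean, with a dot for the mean and a line from the lowest to the highest of 7 mice. Tef is highest and Rora lowest in WT mice, and the ranges of the genotypes are apart for Dbp (18.2 to 29.4 in WT, 31.9 to 46.0 in LPAR2-/- mice) and Ciart (5.24 to 6.20 and 6.95 to 12.0).

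Among the PAR bZIP activators, which bind D-boxes, Dbp differed by genotype and Tef and Hlf overlapped. Dbp (chr7:45705247-45710203) ranged from 53.4 to 77.2 CPM in LPAR2-/- mice (median 73.2) and from 30.4 to 49.3 CPM in WT mice (median 35.3), on 569 to 1788 counts per mouse. All 7 LPAR2-/- mice lay above the highest WT mouse, and the mice nearest to each other were LPAR2-/- mouse 3 and WT mouse 1. The means were 69.4 ± 8.82 and 37.2 ± 6.13 CPM (SD, n = 7 each), a log2 fold change of 0.90 ± 0.10 (SE), which was larger in size than that of 98.9% of the genes tested. Tef (chr15:81802673-81826863) ranged from 595 to 677 CPM in LPAR2-/- mice (median 627) and from 544 to 681 CPM in WT mice (median 639). The LPAR2-/- range of Tef lay inside the WT range. The log2 fold change of Tef was 0.03 ± 0.05, with an interval of 2 standard errors from -0.07 to 0.14. This transcript varied little, with a within-genotype SD of 0.0985 on the log2 CPM scale, lower than in most genes tested (percentile 30.8). Hlf (chr11:90336535-90390917) ranged from 205 to 266 CPM in LPAR2-/- mice (median 225) and from 184 to 303 CPM in WT mice (median 286). WT mice were spread wider than LPAR2-/- mice and held both the lowest values (WT mouse 7 at 184 CPM and WT mouse 1 at 196 CPM) and the highest. The log2 fold change of Hlf was -0.15 ± 0.11, with an interval from -0.38 to 0.07.

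Nfil3 (chr13:52967209-52981039), the repressor at D-boxes, was lower in LPAR2-/- mice. It ranged from 9.05 to 11.7 CPM in LPAR2-/- mice (median 10.0) and from 9.45 to 19.5 CPM in WT mice (median 14.4), on 162 to 390 counts per mouse. The ranges overlapped through WT mouse 7 alone, whose 9.45 CPM lay among the LPAR2-/- mice, while the other 6 WT mice read 13.6 CPM or more. The means were 10.2 ± 1.03 and 14.9 ± 3.24 CPM, and the log2 fold change was -0.56 ± 0.12. Without WT mouse 7 it was -0.64.

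Ciart (chr3:95878505-95882228) encodes the repressor of CLOCK-BMAL1 also known as CHRONO. It ranged from 9.70 to 16.7 CPM in LPAR2-/- mice (median 15.1) and from 7.31 to 8.65 CPM in WT mice (median 7.99), on 135 to 326 counts per mouse. All 7 LPAR2-/- mice exceeded the highest WT mouse, and LPAR2-/- mouse 3 was again the lowest of its group. The means were 14.6 ± 2.50 and 7.96 ± 0.566 CPM, and the log2 fold change was 0.87 ± 0.10, larger in size than in 98.8% of genes. Without LPAR2-/- mouse 3, the library with the most oligodendrocyte counts, the log2 fold changes of Dbp and Ciart were both 0.95. In such whole-tissue samples, fewer cells of a type and less RNA per cell cannot be told apart. The part of the oligodendrocyte counts in these values was not tested beyond leaving out that mouse.

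The E-box repressors Bhlhe40 and Bhlhe41, paralogs also called DEC1 and DEC2, overlapped between genotypes. Bhlhe40 (chr6:108660629-108666925) ranged from 94.5 to 175 CPM in LPAR2-/- mice (median 111) and from 91.5 to 163 CPM in WT mice (median 138). It was the most variable member, with a within-genotype SD of 0.323 on the log2 CPM scale (percentile 85.1 of genes), and LPAR2-/- mice 6 (175 CPM) and 7 (162 CPM) stood above the other 5, which read 122 CPM or less. Its log2 fold change of -0.05 ± 0.16 had an interval from -0.37 to 0.27. Bhlhe41 (chr6:145858243-145865420) ranged from 40.1 to 54.3 CPM in LPAR2-/- mice (median 51.7) and from 43.2 to 52.1 CPM in WT mice (median 47.1). Here 6 of the 7 LPAR2-/- mice lay above the WT median and LPAR2-/- mouse 3 lay below every WT mouse. The log2 fold change was 0.09 ± 0.06, and 0.14 ± 0.04 without LPAR2-/- mouse 3.

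The ROR receptors, nuclear receptors that activate Arntl through ROR elements, overlapped as well. Rora (chr9:68653786-69388246) ranged from 24.0 to 30.2 CPM in LPAR2-/- mice (median 26.9) and from 24.2 to 29.3 CPM in WT mice (median 27.0). Its means were nearly equal, and the log2 fold change of 0.01 ± 0.06 had an interval from -0.12 to 0.13. Rorb (chr19:18930609-19111196) ranged from 22.7 to 28.4 CPM in LPAR2-/- mice (median 25.7) and from 20.4 to 34.2 CPM in WT mice (median 27.7). As for Hlf, the WT mice were spread wider and held the lowest (WT mice 7 and 1) and the highest values, so the LPAR2-/- range lay inside the WT range. The log2 fold change was -0.14 ± 0.11, with an interval from -0.35 to 0.08.

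**Figure D2:**
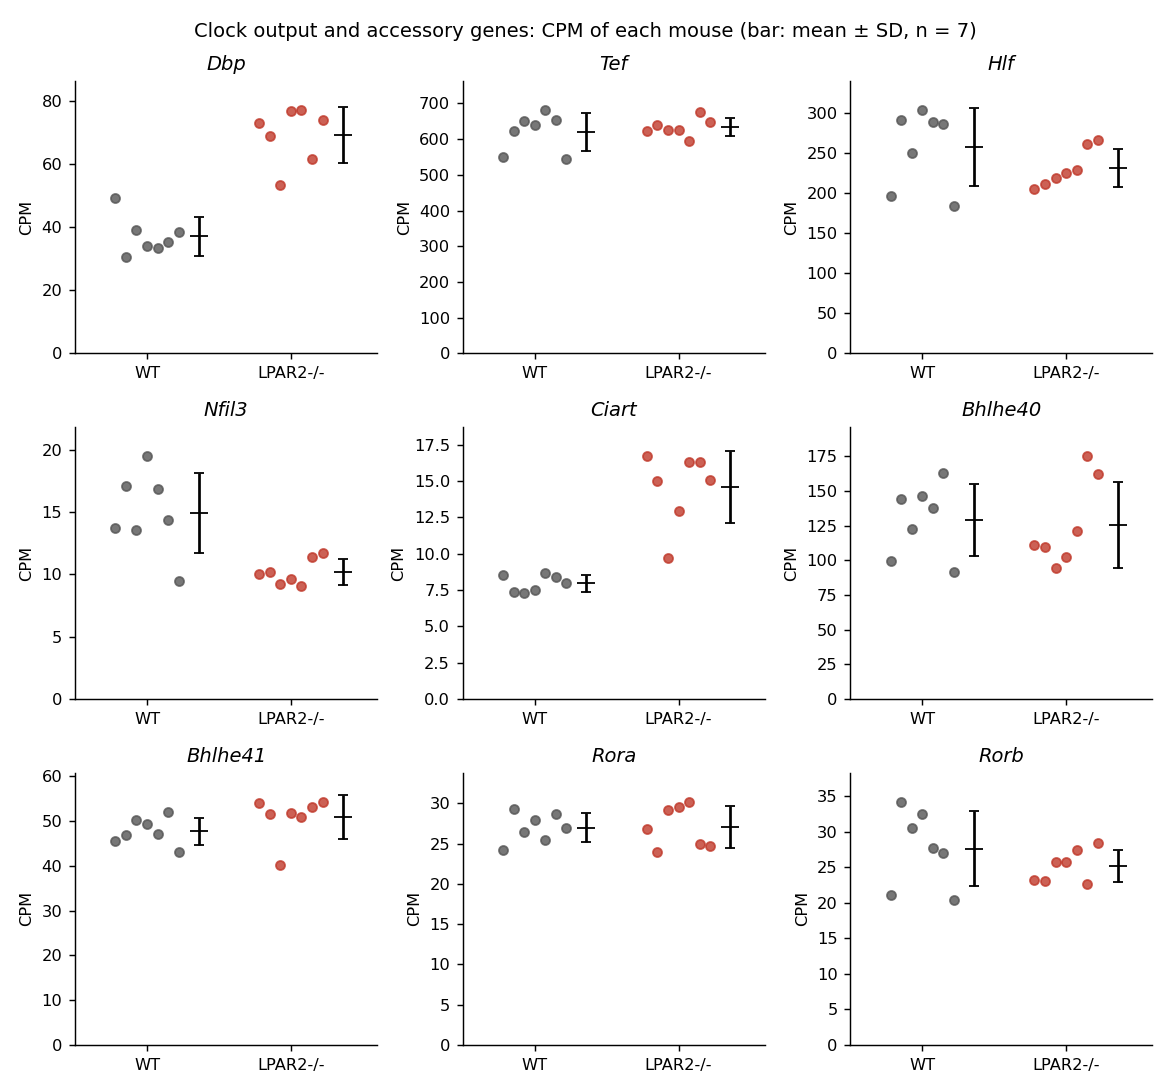
CPM of each of the 9 members in every mouse (dots, mouse 1 to 7 from left to right in each genotype) with mean ± SD beside them (n = 7), each panel starting at 0. All LPAR2-/- dots lie above all WT dots for Dbp and Ciart, 6 of 7 WT dots lie above all LPAR2-/- dots for Nfil3, and the genotypes overlap for the other 6 genes.

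In all, 3 of the 9 members passed the threshold that 6.77% of all genes passed, Dbp and Ciart higher (3.32% of all genes) and Nfil3 lower (3.46%). For 2 members the ranges of the genotypes did not overlap, as for 1.77% of all genes. Because these values led to the list, nothing is read from the counts. The log2 fold change was above 0 in 5 members and below 0 in 4, with a median of 0.01 against 0.00 over all genes, of which 51.1% were above 0. The sign of Bhlhe40 and Rora, whose values lie close to 0, changed when single mice were left out (-0.15 to 0.01 and -0.02 to 0.03). The log2 fold changes of Dbp (0.86 to 0.98), Ciart (0.83 to 0.95) and Nfil3 (-0.64 to -0.49) covered these ranges with 1 mouse left out, and no stability is read from them, since the values chose the list.

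Members share part of their span with other genes. Counting was done for the reverse strand, which is meant to keep reads of genes on opposite strands apart. How strictly the libraries kept the strand was not tested. Dbp overlaps Sphk2, a sphingosine kinase gene on the opposite strand (chr7:45709463-45718002), over 741 bases, and Sphk2 rose by a log2 fold change of 0.16 ± 0.04 (adjusted p = 0.0371, edgeR). Ciart lies within C920021L13Rik on the opposite strand, which was counted only 29 to 56 times per mouse against 135 to 326 for Ciart. The log2 fold change of C920021L13Rik was 0.34 ± 0.13 (adjusted p = 0.138, edgeR). Bhlhe40 overlaps 0610040F04Rik on the opposite strand over 306 bases (76 to 145 counts per mouse). On the same strand, 9530091C08Rik lies within Rora and was counted 0 to 5 times.

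The core clock genes were compared with the members through a list of 17 genes, all of them tested, of which 4 passed the threshold of the edgeR quasi-likelihood test over all genes (6.77% of all genes did). This list and the list of output genes below were written with the values of Dbp and Ciart known. Arntl, which encodes BMAL1, fell from 43.1 ± 2.34 CPM in WT mice to 32.7 ± 4.11 CPM in LPAR2-/- mice (log2 fold change -0.40 ± 0.07, adjusted p = 0.00281), with every LPAR2-/- mouse (28.4 to 38.9 CPM) below every WT mouse (40.0 to 45.5 CPM). Its partner Clock fell by 0.18 on the log2 scale (SE 0.04, adjusted p = 0.0238). Nr1d2, a repressor of Arntl, rose by 0.21 ± 0.05 (adjusted p = 0.0224), from 92.3 ± 6.05 to 107 ± 7.46 CPM. Cry2, a repressor of CLOCK-BMAL1, rose by 0.18 ± 0.05 (adjusted p = 0.0400), from 180.5 ± 13.7 to 204 ± 11.3 CPM. The calls of Arntl and Nr1d2 held with each of the 14 mice left out in turn. Clock did not pass without LPAR2-/- mouse 1 or WT mouse 2, 4 or 6 (highest adjusted p = 0.0578). Cry2 passed only without LPAR2-/- mouse 3 or 5 or WT mouse 1 or 7, and the other 10 left-out fits gave adjusted p values up to 0.0925. The other 13 did not pass, among them Per1 (0.07 ± 0.07), Per2 (0.13 ± 0.08), Per3 (0.16 ± 0.06, adjusted p = 0.157), Cry1 (0.06 ± 0.09), Nr1d1 (0.12 ± 0.05, adjusted p = 0.199) and Npas2 (-0.29 ± 0.10, adjusted p = 0.0883). Of these, Npas2 passed without WT mouse 1 (adjusted p = 0.0255) and Per3 without WT mouse 4 (adjusted p = 0.0455). Over the list, 10 log2 fold changes were above 0 and 7 below, with a median of 0.06.

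Of 11 further output genes of the clock or of PAR bZIP factors, all tested, 2 passed (6.77% of all genes did), 1 higher (3.32% of all genes) and 1 lower (3.46%). Usp2, a deubiquitinating enzyme with a strongly rhythmic transcript, rose from 105 ± 11.6 to 132.5 ± 14 CPM (log2 fold change 0.33 ± 0.07, adjusted p = 0.0155, edgeR). Klf10, a zinc finger repressor, fell from 37.7 ± 5.90 to 28.3 ± 3.85 CPM (-0.42 ± 0.10, adjusted p = 0.0203). Both calls held with each mouse left out. Among the PAR bZIP target genes of other tissues, Pdxk (-0.07 ± 0.04), Por (0.08 ± 0.04), Alas1 (0.12 ± 0.05) and Nr1i3 (-0.10 ± 0.11) did not pass, although Alas1 did without WT mouse 1 (adjusted p = 0.0315). Of the 11 genes, 4 were above 0 and 7 below, with a median log2 fold change of -0.08.

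**Figure D3:**
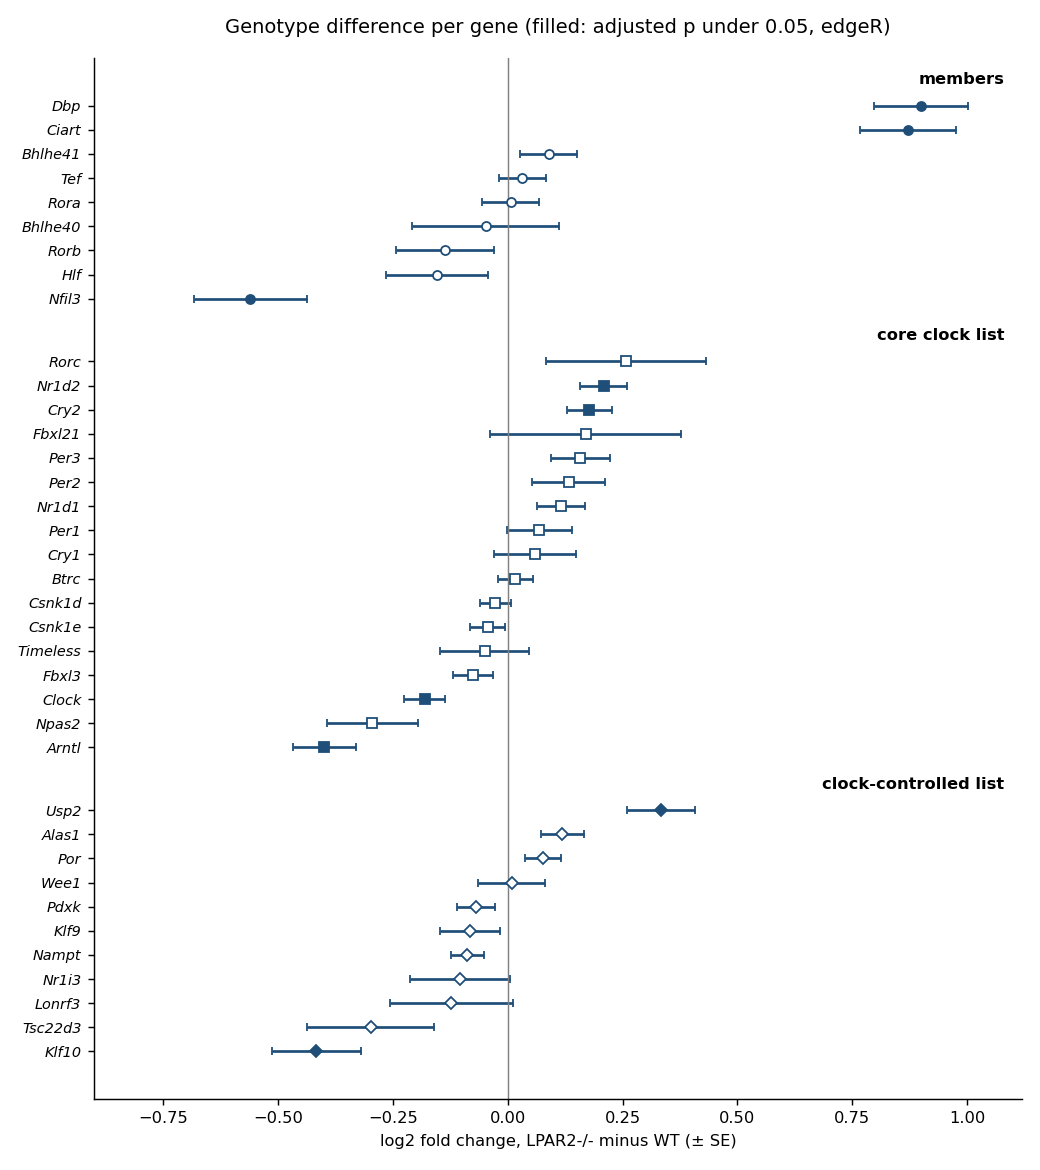
Log2 fold change of LPAR2-/- against WT mice (± SE) for the 9 members, the 17 core clock genes and 11 output genes, ordered within each list. Filled symbols passed an adjusted p of 0.05 in edgeR over all genes. Dbp (0.90) and Ciart (0.87) lie furthest to the right and Nfil3 (-0.56) furthest to the left of the genes shown.

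Whether the members rise and fall together between mice was asked after the mean of each genotype had been subtracted, so that the genotype difference takes no part. Over the 14 mice, Dbp followed none of the other 8 members past the threshold (permutation tests, two-sided, adjusted over 8 pairs, and 0 of 8 had an unadjusted p under 0.05). The largest values were Pearson's r = -0.55 with Tef (p = 0.0569 by permutation, adjusted p = 0.193, rho = -0.50, p = 0.0674) and r = -0.53 with Hlf (permutation p = 0.0725, adjusted p = 0.193, rho = -0.35, p = 0.221). Without WT mouse 1 these values were both -0.32, and without LPAR2-/- mouse 3 they were -0.68 and -0.69 (permutation tests, adjusted p = 0.0717 for both). For Dbp with Hlf, r was -0.77 within WT mice and -0.01 within LPAR2-/- mice, and the difference between the genotypes was not tested. Between Dbp and Ciart, the members that differed most by genotype, r was 0.49 (permutation p = 0.0723, adjusted p = 0.193, rho = 0.24, p = 0.441). That value rested on LPAR2-/- mouse 3, without which r was 0.07, whereas it was 0.52 without WT mouse 1. Without both, the mice farthest from the median of Dbp, it was -0.20. Dbp and its repressive counterpart Nfil3 gave r = -0.34 (permutation p = 0.285, adjusted p = 0.316), which was -0.51 without LPAR2-/- mouse 3 and -0.65 without both of those mice (permutation p = 0.0327, unadjusted). Dbp and Bhlhe40 gave r = -0.31, which was -0.64 without LPAR2-/- mouse 3, -0.13 without WT mouse 1 and -0.60 without both.

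All 36 pairs of members were then compared, a step added after the values had been seen. Of these, 5 pairs passed a threshold of 0.05 adjusted over 36 (permutation test of Pearson's r), all positive and all among Hlf, Bhlhe40, Nfil3 and Tef. Hlf and Bhlhe40 were closest, with r = 0.87 (permutation p = 0.00015, adjusted p = 0.0054) and rho = 0.85 (permutation p = 0.00029, adjusted p = 0.0104). This pair had r = 0.96 within WT mice and 0.87 within LPAR2-/- mice, and 0.83 without WT mice 7 and 1, which were farthest from the median of Hlf. Hlf and Nfil3 had r = 0.84 (permutation p = 0.00031, adjusted p = 0.00558), 0.86 within WT and 0.72 within LPAR2-/- mice, and 0.73 without WT mice 7 and 1. Nfil3 and Bhlhe40 had r = 0.72 (permutation p = 0.00169, adjusted p = 0.0203) and 0.70 without WT mice 7 and 4. Tef correlated with Bhlhe40 at r = 0.72 (permutation p = 0.00413, adjusted p = 0.0372) and with Hlf at r = 0.84 (permutation p = 0.00629, adjusted p = 0.0453). These values were 0.48 and 0.37 without WT mice 7 and 1, so that they rested in large part on those mice. Within LPAR2-/- mice alone, r was 0.65 for Tef with Bhlhe40 (exact permutation p = 0.114) and 0.58 for Tef with Hlf (exact permutation p = 0.178). Among WT mice, mice 7 and 1 also had the highest CA3 sums (190 and 177 CPM, against 106 to 133 CPM) and the lowest dentate gyrus sums (397 and 351 CPM, against 417 to 515 CPM), whose part in these correlations was not tested. Hlf with Rorb did not pass (r = 0.80, permutation p = 0.0086, adjusted p = 0.0516), and r was 0.29 without WT mice 7 and 1. By Spearman's rho, Hlf with Bhlhe40 was the 1 pair that passed over 36 pairs, while Hlf with Nfil3 had rho = 0.75 and Nfil3 with Bhlhe40 had rho = 0.70 (adjusted p = 0.0628 and 0.0646 by permutation). Tef had rho = 0.73 with Bhlhe40 and 0.68 with Hlf (adjusted p = 0.0628 and 0.0751 by permutation). Without WT mouse 7 alone, 1 of the 36 pairs passed, again Hlf with Bhlhe40, and Hlf with Nfil3 had r = 0.72 (permutation test, adjusted p = 0.145).

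**Figure D4:**
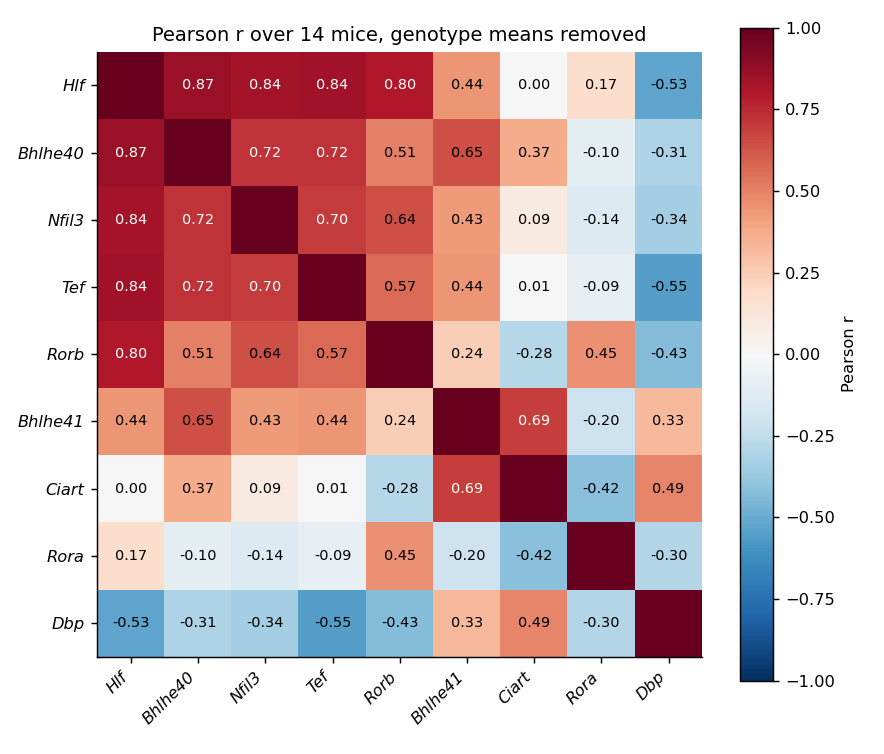
Pearson's r between each pair of members over 14 mice, computed on log2 CPM with genotype means removed. Hlf, Bhlhe40, Nfil3 and Tef are joined by values from 0.70 to 0.87, Hlf with Rorb reads 0.80, and Dbp lies between -0.55 (Tef) and 0.49 (Ciart).

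**Figure D5:**
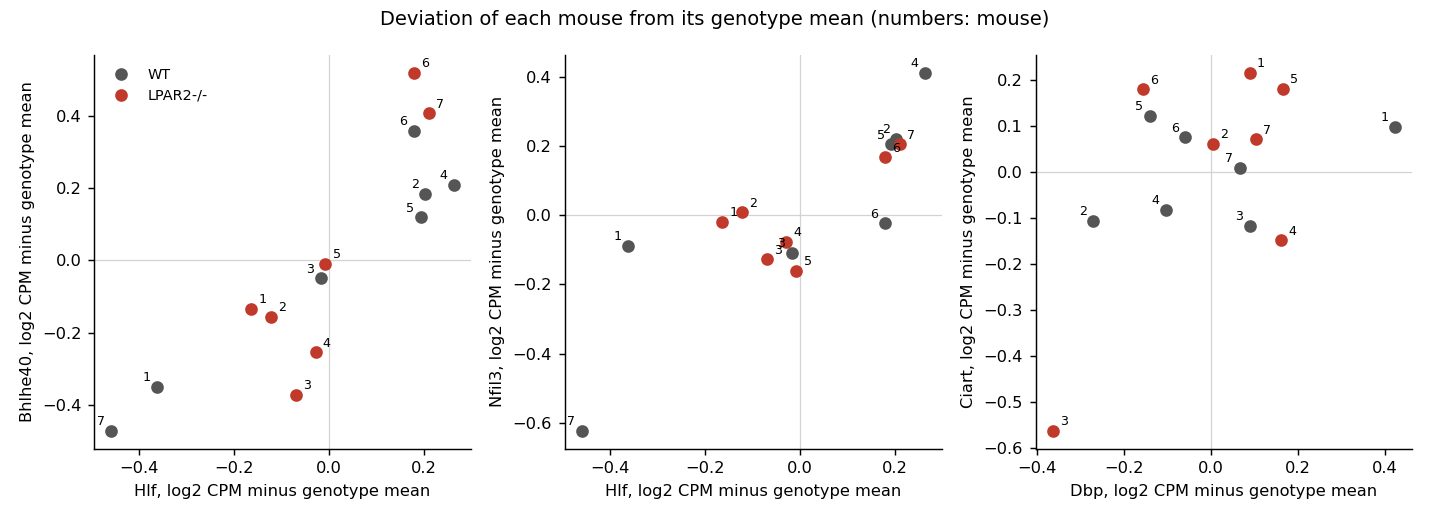
Deviation of each mouse from its genotype mean in log2 CPM for Hlf with Bhlhe40 (left), Hlf with Nfil3 (middle) and Dbp with Ciart (right), with mouse numbers beside the dots. WT mice 1 and 7 lie at the lower left of the first panel (r = 0.87), WT mouse 7 stands alone in the second (r = 0.84), and LPAR2-/- mouse 3 stands alone in the third (r = 0.49).

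Many genes varied together in these mice. After removal of the genotype means, the first principal component took 24.8% of the variance of all genes tested, with LPAR2-/- mice 6, 7 and 3 at its ends. Mice 6 and 7, at one end, had the highest dentate gyrus and the lowest CA3 sums given above, and mouse 3, at the other, had the highest CA3 sum (197.5 CPM) beside a dentate gyrus sum of 367 CPM. LPAR2-/- mouse 4, whose score of -16.3 was the nearest to that of mouse 3 (-23.1), differed from it in these markers. Its dentate gyrus sum was 498 CPM and its CA3 sum 134.5 CPM. The part of the subfield markers in this component and in the level of Bhlhe40 was not tested. Bhlhe40 followed this component (r = 0.83), as did 18.2% of all genes at an absolute r of 0.7 or more. Bhlhe41 (0.69), Tef (0.60), Nfil3 (0.55), Ciart (0.54), Hlf (0.54) and Rora (-0.59) lay above the median absolute r of 0.41 of all genes, and Rorb (0.08) and Dbp (-0.06) lay near 0. With the component regressed out, 4 of the 36 pairs passed. Hlf with Bhlhe40 was the 1 of the earlier 5 among them (r = 0.89, permutation test, adjusted p = 0.00216). The remaining 3 had not passed before, namely Hlf with Rorb (r = 0.90, adjusted p = 0.00672 by permutation), Bhlhe40 with Rora (0.86 against -0.10 before, adjusted p = 0.00672) and Bhlhe40 with Rorb (0.79 against 0.51 before, adjusted p = 0.0175). Of the earlier 5, the other 4 did not pass, namely Hlf with Nfil3 (r = 0.77, adjusted p = 0.057 by permutation), Tef with Hlf (0.77, adjusted p = 0.0661), Nfil3 with Bhlhe40 (0.57, adjusted p = 0.119) and Tef with Bhlhe40 (0.50, adjusted p = 0.182).

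For each member, the genes whose pattern was most like it were sought among all genes tested, by Pearson's r over the 14 mice with genotype means removed, given here as a description without a test. Dbp was followed most closely by Clec14a (r = 0.91), an endothelial lectin gene, then Sbno2 (0.88). Ciart was followed by Zfp408 and Sun1 (both 0.89), and Nfil3 by Gmip (0.94) and Herpud1 (0.93), a gene of endoplasmic reticulum protein degradation. Tef was followed by Sin3b (0.95), a corepressor scaffold, and Shkbp1 (0.94), and Hlf by Zmym1 (0.99) and Dusp11 (0.97). The closest genes were Rnf19a (0.98) for Bhlhe40, Safb2 (0.91) for Bhlhe41, Rest (0.92) for Rora and Erp44 (0.95) for Rorb. No member stood among the 3 genes closest to another member.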

How the data were processed

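The authors used cutadapt 1.18 for trimming, STAR with mm10 for alignment and featureCounts 1.6.3 for counting exonic reads of each gene on the reverse strand. The deposited counts carry no normalization. A second deposited table held counts divided by DESeq2 1.22.2 size factors and by length (16510 entries, 16370 past the study's filter of more than 0.06 in at least 3 mice per genotype). Its decimal signs were lost and were restored, after which 100% of its values (genes with at least 10 counts) lay within 1% of scaled counts. It served as an alternative only. Every sample column of the counts was used. Of the second table the linear columns were used and the log2 columns of the same mice were not.

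The members and all lists were chosen with earlier results of these data known. The genes to be named were the 9 members, called genes of the clock lists, the 3 genes most similar to each member, Lpar2, and genes overlapping a member. The remaining clock genes named with their values, and the closest 1 or 2 of the 3 similar genes, were picked from these by role. Genes were filtered with filterByExpr and normalized by TMM in edgeR 4.0.16 (R 4.3.3), and tested by the robust quasi-likelihood F test, 7 against 7 mice without covariates. CPM and RPKM use TMM library sizes, and log2 CPM a prior count of 2. Correlations were tested with 100000 permutations within genotype. Intervals are 2 standard errors. A count of 0 allows up to 3 counts, and this floor covers counting error only. Promoter windows came from RefSeq (GRCm38.p6). On simulated data, edgeR recovered 93% of 200 genes changed 2-fold among 14897. Alternatives were DESeq2 1.42.0, other scalings and filters, limma 3.58.1 on the normalized values, a prior count of 0.5, the mouse number as a block, and each mouse left out.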

Additional observations from a re-analysis of the deposited data

Results flagged for a closer look

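The CPM of Bhlhe41 in LPAR2-/- mouse 3 stood apart from its group. It was 40.1, the next lowest LPAR2-/- mouse read 50.9, and this gap was 0.761 of the whole range of the 7 mice (more than Dixon's 95% critical value for 7 samples). The same mouse had the lowest Dbp, Ciart and Bhlhe40 of its group and the most oligodendrocyte counts (summed CPM of 3512). A check of 18 groups of values was made, and chance alone marks about 1 in 20 groups.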

How the results depend on the processing

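Of the 9 members, 3 passed the threshold under the alternatives of the genotype comparison and 2 with the replicate block (not Nfil3). As the genotype values chose the list, this is a description only. No clear pairing of the mice by number was seen (correlations from -0.33 to 0.31 after removal of genotype means, 3 of 7 above 0.1), and pairing was not tested. With the replicate block, 586 genes passed (314 higher, 272 lower) against 1009 (494 and 515), 3 core clock genes passed against 4 (Clock had an adjusted p of 0.067), and 10 pairs of members covaried against 5. For the pairs, this block makes the deviations of the 2 mice with the same number mirror each other. The permutations did not allow for that, so the 10 pairs are not read as more covariation. Leaving out 1 mouse gave 567 to 1385 genes (275 to 660 higher, 292 to 725 lower), with fewest without WT mouse 2, and at most 669 also without LPAR2-/- mouse 1 or WT mouse 4, 5 or 6. It gave 2 to 5 core clock genes, the 2 without LPAR2-/- mouse 1, WT mouse 2 or WT mouse 6. It gave 2 to 3 clock-controlled genes, and 1 to 7 pairs of members, with 3 or fewer without LPAR2-/- mouse 7 or WT mouse 1, 4, 6 or 7. Upper quartile scaling left 3 pairs and made 62.0% of calls higher against 49.0%, while the median of all genes moved to 0.02. Of the 8 pairs with Dbp, 3 changed sign under an alternative, none of them past the threshold. Dbp with Bhlhe41 ranged from -0.27 (without LPAR2-/- mouse 3) to 0.56 (without WT mouse 1) with 1 mouse left out and was -0.079 without the 2 mice farthest from the median, Dbp with Ciart was -0.20 and Dbp with Rora 0.24 without those 2 mice. The cause was not tested. No pair with Dbp passed under the alternatives for which an adjusted p was computed, and the order of the members by level was the same in the authors' normalized values. At 135 to 390 counts per mouse, Ciart and Nfil3 were the members with the least depth.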
